A study of Saccharomyces cerevisiae with 12 samples.

Results

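The comparison described here sets yeast cells whose sole Scc2 is degron-tagged against cells that also carry a plasmid copy without the degron, both after 3 h of auxin, across all genes with a measurable RNA level. It uses 6 of the 12 libraries of the series, chosen by their plasmid labels. Scc2 forms, with Scc4, the loader that places cohesin on chromosomes. Cohesin is a ring of Smc1, Smc3, Mcd1 (Scc1) and Irr1 (Scc3) that holds sister chromatids together until separase cuts it at anaphase, and it also forms chromatin loops. Cells that cannot hold their sister chromatids together are delayed in mitosis by the spindle checkpoint. Budding yeast transcribes its mitotic genes in waves: the forkhead factor Fkh2 with Mcm1 and Ndd1 drives the CLB2 cluster in G2 and M, and a product of that cluster, the factor Swi5, takes part in driving genes of mitotic exit and of early G1. Daughter cells then transcribe genes for their separation from the mother.

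All strains were haploid W303 of mating type a and shared the alleles can1-100, ade2-1 and trp1-1, besides his3-11,15 and a mutant leu2. Each carried the degron-tagged chromosomal allele SCC2-AID*-6FLAG and the plant F-box protein OsTIR1 under the ADH1 promoter at ura3-1, so that auxin leads to the breakdown of the chromosomal Scc2 protein in every group. The groups differed in a pRS413 plasmid selected by HIS3: in WT it held SCC2-7MYC, in empty_vector it held no SCC2. Each group had 3 libraries of 12 in the series, and the other 6 came from the plasmids scc2-R787G-7MYC and scc2-G1242V-7MYC. Cultures without histidine were treated with 1 mM auxin for 3 h and taken at an OD600 of 0.4 to 0.8, so the comparison is of unsynchronised cells at 1 time point. Scc2 protein was not measured in the files used here, and nothing was sampled before auxin. According to the growth notes the null strain was grown in duplicate, but 3 libraries of it are held and all were used. The values are length-normalised transcript abundances (TPM) scaled per library, and 6097 of 7033 features with a mean of 1 TPM or more were tested. Differences are log2(scaled TPM + 1), empty_vector minus WT, which understates the change of low genes, and the threshold for a call was an adjusted p of 0.05 (limma, Benjamini-Hochberg over all 6097 features). Nothing in the labels says that the 3 cultures of a group were grown apart, so the p-values measure the spread between these libraries.

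Before the results, the libraries were compared. SCC2 RNA, which sums the chromosomal and the plasmid copy, was at 120, 128 and 109 scaled TPM in WT, at 86.5, 99.6 and 90.2 in R787G and at 12.8, 12.5 and 12.1 in empty_vector. The libraries labelled G1242V held 51.2, 93.2 and 12.4, so library 3 of that label had the SCC2 level of empty_vector. These libraries go into the pooled estimate of spread that was chosen as the main fit, and counts of calls for the lists below are therefore given also from a fit of the other 9 libraries. Library 3 of empty_vector stood apart from the others on the second principal component (18.6, against -9.73 to 3.59 for the other 11), with the smallest share of TPM in SCR1, the abundant RNA part of the signal recognition particle (7.07%, against 10.6% to 15.5%), and with the highest scaling factor (1.19). The mating-type markers were those of a cells: STE2, STE6, BAR1, AGA2, MFA1 and MFA2 were detected in all 6 libraries compared (lowest 9.79 for BAR1), and STE4, STE18 and GPA1 as well. Of the markers of alpha cells, MF(ALPHA)2 was at 0.271 to 1.11 and STE3 at 4.93 to 6.17, MF(ALPHA)1 reached 20 in empty_vector library 2, and SAG1 was not near 0, at 22.2 to 30.6. Of the meiotic markers looked at for low levels, NDT80 and SPS4 were at 1.29 to 2.97. IME2, at 9.19 to 11.7, and DIT1, at 6.91 to 8.77, were not near 0.

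In the fit of all 12 libraries, 161 of 6097 features were called, or 2.64%. Of these, 92 were lower in empty_vector (1.51% of those tested) and 69 higher (1.13%). The fit without the libraries labelled G1242V called 185 (3.03%), with 121 lower (1.98%) and 64 higher (1.05%), and 120 features were called by both. The fits give the same differences and differ in precision: the smallest adjusted p was 0.0406 in the first and 6.42e-08 in the second, and the standard error of the SCC2 difference was 0.50 and 0.08. The calls of the 12-library fit did not survive the loss of any 1 of 5 libraries: without WT 1, WT 2, WT 3, empty_vector 2 or empty_vector 3 none was left in limma (1009 to 1762 features at an unadjusted p under 0.05), and without empty_vector 1 there were 24. In the 9-library fit, leaving out each library in turn left 65 (without WT 1) to 133 (without empty_vector 1), and 61 features were called in all 6 of those fits. Of these, 58 were lower and 3 higher, so most of the 64 rises lost their call without 1 library or another. Unscaled TPM moved the median of all features by about 0.1, from -0.01 to 0.09, and called 52 lower and 154 higher, so the split between lower and higher calls depends on the scaling. Among the features tested, all 3 empty_vector libraries lay below all 3 of WT for 18.4%, and above them for 17.3%. They lay below all 6 WT and R787G libraries for 8.77%, and above them for 7.82%. R787G, a mutant SCC2 plasmid whose libraries agreed in SCC2 level, is set beside the values below.

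Of the genes of the plasmid, only SCC2 bears on the labels, because the plasmid of every group carried HIS3. Of all features called, SCC2 had the largest fall, -3.16 (SE 0.50, adjusted p = 0.0440), and HIS3 and the open reading frame YOR203W (1.75, SE 0.30) had the 2 largest rises. HIS3, the marker of the plasmid and an enzyme of histidine synthesis, stood at 900, 845 and 796 in WT and at 3500, 2590 and 2423 in empty_vector, a rise of 1.73 (SE 0.31, adjusted p = 0.0440). RNA from the plasmid and from the chromosomal his3-11,15 allele is summed in it. R787G held 1050, 1353 and 872, with library 3 inside the range of WT. YOR203W, which by its systematic name lies between HIS3 and DED1 and has no coordinates in the reference used, stood at 355, 324 and 301 in WT, 441, 400 and 349 in R787G and 1347, 1047 and 941 in empty_vector, the same order of the 3 empty_vector libraries as in HIS3. The nearest neighbours with coordinates were not called: DED1, an RNA helicase, was at 286, 286 and 300 in WT and 262, 228 and 240 in empty_vector (-0.26, SE 0.08, adjusted p = 0.0936), and MRM1 overlapped between the groups. Of 6 other genes of histidine synthesis, HIS4 was called in the 12-library fit (0.46, SE 0.11, adjusted p = 0.0491) and none in the 9-library fit. For all features, the shares called higher were 1.13% and 1.05%. All 6 had means above WT, by 0.07 to 0.46, against 2960 of all 6097 features. Whether plasmid copy number moved with HIS3 was not tested. URA3, the marker of the OsTIR1 construct, was at 1125, 1220 and 1038 in WT and 1271, 1308 and 1465 in empty_vector and was not called (0.26, SE 0.11, adjusted p = 0.157). OsTIR1 RNA itself was not analysed here.

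**Figure D1:**
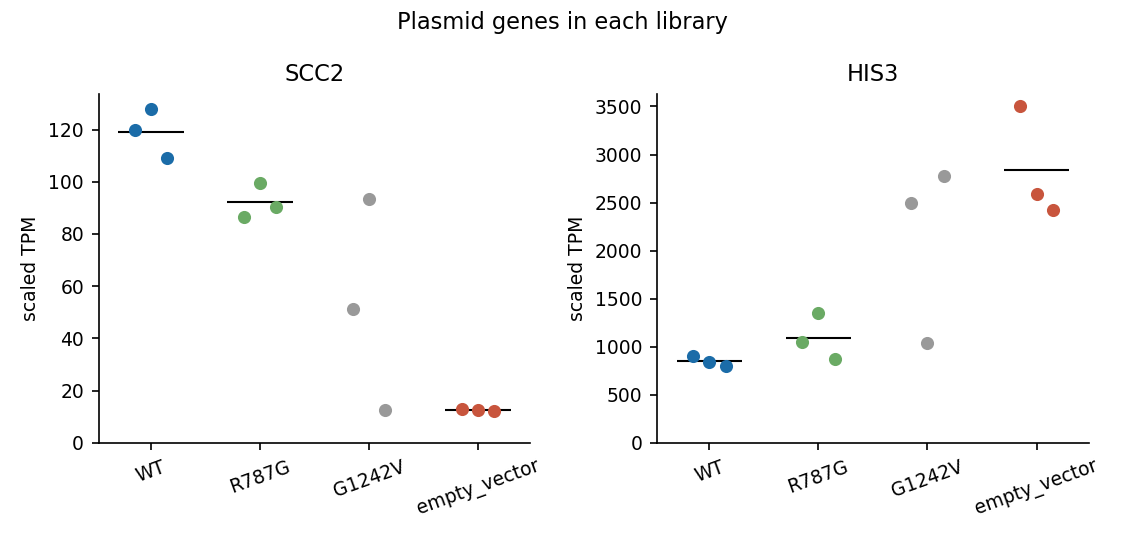
Scaled TPM of SCC2 (left) and HIS3 (right) in each of the 12 libraries by plasmid; points are libraries, black lines the means of 3 libraries, drawn for all groups but G1242V, whose libraries disagree. SCC2 is at 12.1 to 12.8 in empty_vector and 109 to 128 in WT, and HIS3 is at 2423 to 3500 in empty_vector, a range that G1242V libraries 1 and 3 (2498 and 2780) share.

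Of the other cohesin genes, MCD1 was called. SCC4, the partner of Scc2 in the loader, stood at 26.2, 25 and 31.0 in WT and 25.6, 22 and 22.5 in empty_vector, ranges that overlap (-0.22, SE 0.10, adjusted p = 0.174). MCD1, the cleavable ring subunit whose RNA peaks in S phase, stood at 9.09, 7.86 and 9.02 against 5.05, 5.20 and 5.27 and fell by 0.64 (SE 0.12, adjusted p = 0.0446; 0.00459 in the 9-library fit). The remaining ring genes were not called: SMC1 differed by -0.13, SMC3 by -0.15 and IRR1 by 0.13 (SE 0.06 each). None of 6 cohesin regulators was called by either fit. Among them PDS5, which holds cohesin on chromosomes, was at 11.4 to 12.3 in WT and 13.1 to 14.2 in empty_vector (0.23, SE 0.06, adjusted p = 0.0614). PDS1, the securin that restrains separase, was at 6.6 to 7.31 against 8.11 to 9.37 (0.30, SE 0.09, adjusted p = 0.0807). The separase gene ESP1, the acetyltransferase gene ECO1, the deacetylase gene HOS1 and the release factor gene RAD61 overlapped between the groups. Of 5 condensin genes, YCS4 was called lower by the 9-library fit alone (-0.34, adjusted p = 0.0327), and none of 8 Smc5/6 genes was called by either. For all features, the shares called lower were 1.51% in the 12-library fit and 1.98% in the 9-library fit.

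The CLB2 cluster, the genes transcribed together in G2 and M, was lower in empty_vector. Of its 29 tested members 16 fell, none rose and 13 did not pass, against 1.51% of all features called lower, and its median was -0.48 against -0.01 over all features. The 9-library fit called 17 lower, and 16 in each of its fits with 1 library left out, that without empty_vector 3 included. In 24 members all empty_vector libraries lay below WT, and in 21 they also lay below R787G, against 18.4% and 8.77% of all features. These genes had been seen to move in earlier work on the same libraries, so the count describes them and is no independent evidence. In RNA of a whole culture, fewer cells in a cell cycle stage and less RNA per cell cannot be told apart.

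The forkhead motif was common before these genes. GTAAACA, searched on both strands from 250 bases before to 50 after the start codon, was found in 12 of 29 CLB2 cluster promoters (41.4%), against 6.73% of 5680 tested protein-coding genes. It was found in 23.5% of promoters of genes called lower in the 12-library fit and in 3.12% of those called higher, and in the 9-library fit in 19% and 1.75%. In the 600 bases before the start codon it was found in 48.3% of the cluster, 12.2% of all and, in the 12-library fit, 35.8% of genes called lower and 12.5% of those called higher. The list was assembled from genes known to share this regulation, so its share is a description. Members with a match include ALK1 and HOF1, which fell, and BUD3 and CLB4, which were not called. The match before SWI5 begins 301 bases before its start codon, outside the shorter window. The stretches of 3 genes described below are shown with it. Capitals mark the motif on either strand, and each stretch is written 5′ to 3′ on the strand of its gene (R64 reference, RefSeq).
ALK1, forkhead motif, chrVII:454675-454725, plus strand: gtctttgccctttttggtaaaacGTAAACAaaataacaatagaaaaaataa
HOF1, forkhead motif, chrXIII:335073-335123, plus strand: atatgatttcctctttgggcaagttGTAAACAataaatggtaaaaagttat
SWI5, forkhead motif, chrIV:751017-751067, minus strand: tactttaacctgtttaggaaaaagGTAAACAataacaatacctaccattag

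The cyclin genes came first. CLB2, the main mitotic cyclin, stood at 9.62, 9.37 and 10.2 in WT, 9.15, 10.2 and 9.29 in R787G and 4.22, 4.34 and 4.99 in empty_vector (-0.96, SE 0.19, adjusted p = 0.0446). CLB1, its close relative, went from 6.67, 6.6 and 7.34 to 3.84, 3.99 and 3.6 (-0.71, SE 0.17, adjusted p = 0.0495). No library of empty_vector came near those of WT or R787G in either gene. CLB4, another cyclin of the list, was at 8.15 to 8.98 against 6.38 to 7.44 and was not called (-0.27, SE 0.09, adjusted p = 0.0857).

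The kinases and transcription factors of the cluster moved with the cyclins. KIN3, a NIMA-related kinase, stood at 17.6, 17.9 and 19.4 in WT and 9.76, 7.23 and 7.92 in empty_vector (-1.06, SE 0.19). DBF2, a kinase of the mitotic exit network, went from 40.9, 40.0 and 41.8 to 27.2, 28 and 27.1 (-0.56, SE 0.11). SWI5, which encodes the activator of late mitosis named above, was at 31.8, 31.1 and 30.4 against 12.9, 11.9 and 14.3 (-1.20, SE 0.20, adjusted p = 0.0440). KIN3, DBF2 and SWI5 were called by both fits and in every fit of 9 libraries with 1 left out. CDC5, the polo kinase, and ALK1, a haspin-like kinase, shared the smallest adjusted p of the 12-library fit (0.0406). CDC5 went from 23, 22.1 and 20.8 to 14, 13.4 and 14.2 (-0.63, SE 0.09). ALK1 was at 22.3, 22 and 22.4 in WT and 10.6, 11.2 and 11.6 in empty_vector (-0.94, SE 0.13). HST3, a sirtuin that removes acetyl groups from histone H3, fell as well, from 20.5, 18.3 and 22.4 to 9.13, 7.79 and 10.7 (-1.07, SE 0.20, adjusted p = 0.0440).

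The genes of cytokinesis fell by different amounts. HOF1, an F-BAR protein of the bud neck, stood at 7.42, 6.72 and 8.51 in WT and 3.72, 3.37 and 3.92 in empty_vector (-0.87, SE 0.17), with R787G at 7.37 to 8.6. IQG1, which assembles the actomyosin ring, went from 30.6, 29.2 and 29.7 to 18.9, 19.4 and 17.6 (-0.65, SE 0.12). MYO1, the myosin of that ring, stood at 27.6, 27.5 and 27.1 against 19.1, 19.0 and 19.8 (-0.48, SE 0.09, adjusted p = 0.0446). Within each gene the empty_vector libraries agree to within 2 scaled TPM, a spread far smaller than the gap to WT. Of 16 septin and cytokinesis genes, 4 fell in the 12-library fit (CHS2, IQG1, MYO1 and HOF1) and 5 in the 9-library fit, which added CYK3. These counts stand beside 1.51% and 1.98% of all features called lower. The septin SHS1, at 57.6, 58.8 and 61.2 against 54.8, 51.0 and 55.4, was not called (-0.14, SE 0.06, adjusted p = 0.140).

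Other members of the cluster did not pass. CDC20, the activator of the anaphase-promoting complex, stood at 20, 21 and 19.3 in WT and 13.7, 17.9 and 16.7 in empty_vector (-0.31, SE 0.11, adjusted p = 0.102). The mitotic exit genes TEM1 and MOB1 differed by -0.32 each (adjusted p = 0.123 and 0.0939). The small membrane proteins PMP1 and PMP2 and the bud site gene BUD8 differed by 0.19 or less in size. Against 1.51% of all features called lower in the 12-library fit, 3 of 15 genes of mitotic exit fell. They are DBF2, BNS1 and SPO12, the last a regulator of the release of the phosphatase Cdc14, at 40.1, 43.9 and 35.2 in WT and 18.9, 17.8 and 20.4 in empty_vector (-1.02, SE 0.19, adjusted p = 0.0440). The 9-library fit added AMN1.

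**Figure D2:**
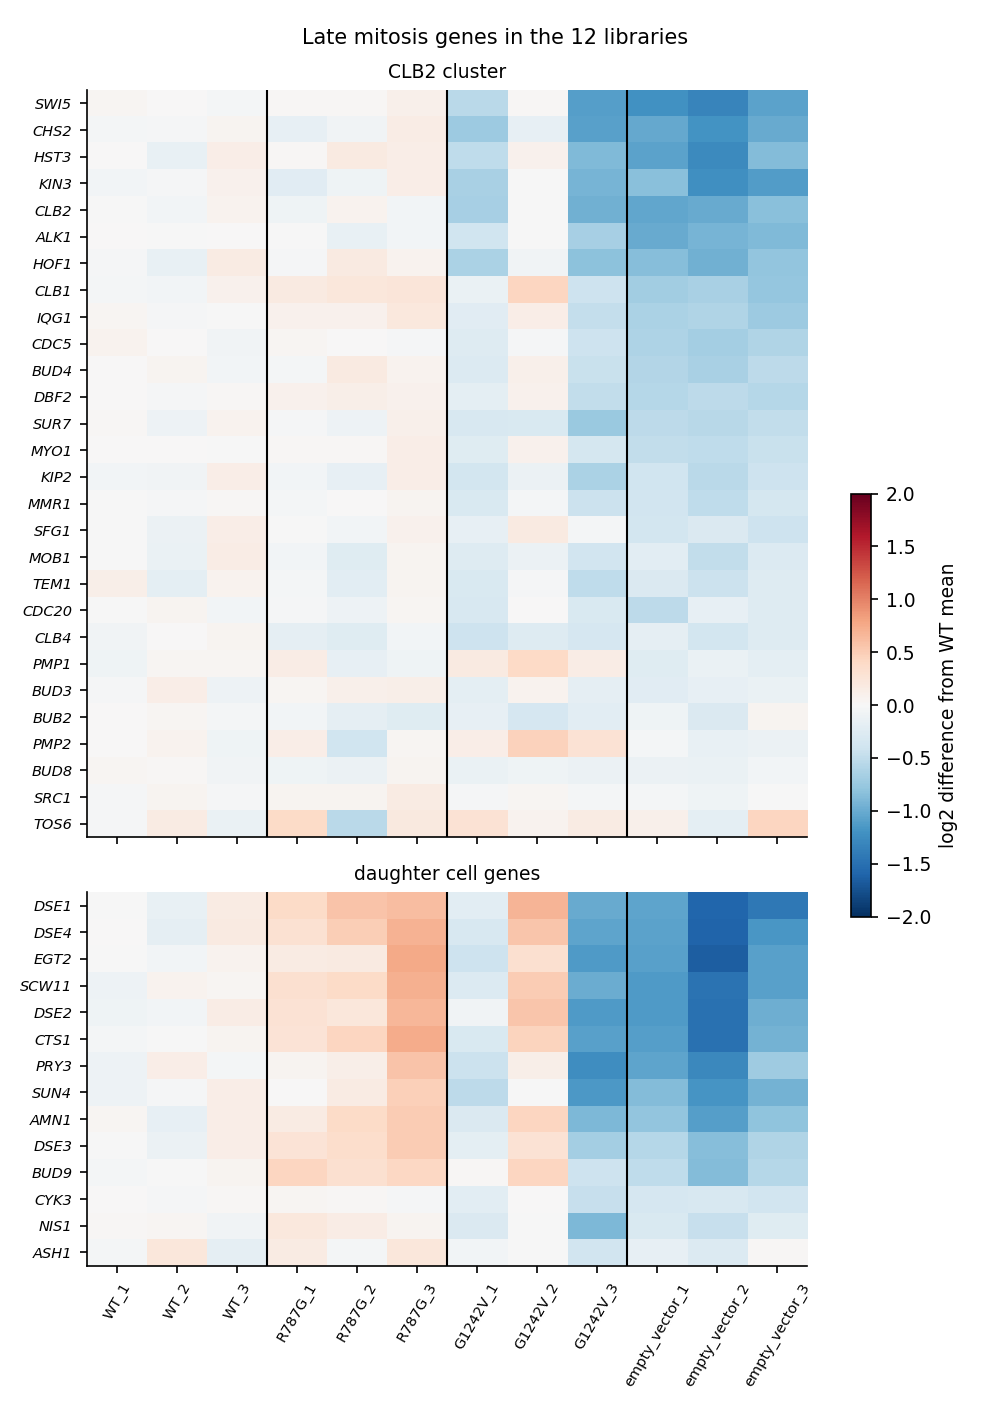
Log2 difference of each library from the mean of the 3 WT libraries for 28 of the 29 CLB2 cluster genes (top) and 14 daughter cell genes (bottom), sorted by the difference between empty_vector and WT; columns are the 12 libraries by plasmid, blue is below WT and red above. The empty_vector columns and G1242V library 3 are blue through most of both blocks, while the R787G columns are near WT in the top block and above it in most of the bottom block.

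The daughter cell genes had the lowest median of the cell cycle lists. They are transcribed in daughter cells at the end of mitosis, and many encode enzymes that digest the septum between mother and daughter. The mean of each of the 14 members was below that of WT, with a median of -1.01. The 12-library fit called 3 of them lower and the 9-library fit 12, with none higher in either. For all features the shares called lower were 1.51% and 1.98%. With 1 library left out, the 9-library fits called 10 to 12 (12 without empty_vector 3). In 13 members the empty_vector libraries lay below all 6 WT and R787G libraries, against 8.77% of all features. The libraries labelled G1242V ranged widely here, as with DSE1 at 49.8, 92.9 and 28.1, and the standard error for DSE1 was 0.32 with them and 0.14 without. DSE1 itself stood at 57.3, 51.7 and 64.3 in WT, 75.5, 85.8 and 88.6 in R787G and 27.1, 18.4 and 20.8 in empty_vector.

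The motif ACCAGC, bound by Swi5, lies farther out than the shorter window in most of these promoters. Within 600 bases before the start codon it was found in 10 of 14 (71.4%), against 16.6% of all promoters. From 250 before to 50 after it was found in 2 of 14 (14.3%), against 8.13%. CTS1 held 3 matches, beginning 566, 546 and 526 bases before its start, and DSE1 also 3, at 446, 398 and 253. EGT2 held 2, at 385 and 197. These promoters, with that of SCW11, are shown with the motif in capitals, on the strand of the gene.
CTS1, Swi5 motif, chrXII:710641-710716, minus strand: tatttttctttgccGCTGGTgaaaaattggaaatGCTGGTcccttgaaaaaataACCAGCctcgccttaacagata
DSE1, Swi5 motif, chrV:409443-409528, minus strand: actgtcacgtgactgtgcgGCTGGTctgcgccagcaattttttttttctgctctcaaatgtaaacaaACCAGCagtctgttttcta
SCW11, Swi5 motif, chrVII:443414-443469, minus strand: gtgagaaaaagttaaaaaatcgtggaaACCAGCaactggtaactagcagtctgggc
EGT2, Swi5 motif, chrXIV:23828-23878, plus strand: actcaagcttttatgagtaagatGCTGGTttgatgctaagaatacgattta

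CTS1, the chitinase that separates the cells, stood at 203, 207 and 218 in WT, 254, 281 and 350 in R787G and 97.4, 73.7 and 108 in empty_vector. It differed by -1.18 (SE 0.30, adjusted p = 0.0557; 0.00441 in the 9-library fit). EGT2, a cell wall glycoprotein of early G1, stood at 71.9, 70.0 and 76.3 in WT and 33.8, 22.6 and 33.7 in empty_vector (-1.27, adjusted p = 0.0509; 0.00792). In both genes empty_vector library 2 was the lowest and R787G lay above WT. DSE2, a secreted protein of daughter cells, had the same order, with 112, 114 and 132 in WT, 146, 140 and 190 in R787G and 53.8, 41.5 and 60.3 in empty_vector (-1.20, adjusted p = 0.0658; 0.00441). DSE4, a glucanase of the septum, went from 76.3, 67.0 and 85.7 to 35.8, 24.4 and 33.2 (-1.28, adjusted p = 0.0534; 0.00402).

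AMN1, which shuts off mitotic exit in daughter cells, stood at 57.6, 49.6 and 61.1 in WT and 31.8, 25.6 and 31.7 in empty_vector (-0.90, adjusted p = 0.0690; 0.00485 in the 9-library fit). NIS1, a bud neck protein, was at 27.6, 28 and 25.7 against 21.8, 19.3 and 22.8 and was called by neither fit (-0.33, adjusted p = 0.215; 0.0508). ASH1, whose RNA is carried into the daughter cell and whose product represses mating-type switching there, overlapped between the groups, with 45.7, 55.2 and 41.3 in WT and 41.7, 38.8 and 47.9 in empty_vector. So the 14 genes did not all move together, and ASH1 differed least (-0.14, SE 0.13).

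Part of the genes expressed between mitosis and G1 moved too. Of 17 genes of the Sic1 cluster, which Swi5 regulates, 2 fell in the 12-library fit and 5 in the 9-library fit (3 without any 1 library other than empty_vector 3), and the median was -0.20. The shares of all features called lower were 1.51% and 1.98%. CIS3, a cell wall protein, went from 56.1, 55.3 and 66.9 to 32.5, 21.5 and 36.9 (-0.98, SE 0.23, adjusted p = 0.0491). RAX2, which marks the bud site, fell by 0.57. PIR1, another cell wall protein, stood at 301, 296 and 320 against 220, 194 and 231 (-0.51, adjusted p = 0.122; 0.0261 in the 9-library fit). Of 11 genes of the M/G1 and MCM list, MCM2, a subunit of the replicative helicase, fell in both fits (-0.28, SE 0.06, adjusted p = 0.0491).

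The waves of G1 and S phase gave fewer calls for their size than the CLB2 cluster. Of 42 tested MBF genes, which are transcribed at the start of S phase, 5 fell in each fit, MCD1, DUN1 and RNR1 among them, and their median was -0.14. The shares of all features called lower were 1.51% and 1.98% in the 12- and 9-library fits. The 9-library fits with 1 library left out called 3 MBF genes lower. DUN1, a checkpoint kinase, went from 20.9, 21.3 and 22 to 14.1, 14.6 and 13.1 (-0.58, SE 0.13, adjusted p = 0.0491). RAD27, the flap nuclease of Okazaki fragments, went the other way, from 27.7, 29.2 and 29.3 to 37.2, 37.4 and 34.8, and was called higher by the 9-library fit alone (0.33, adjusted p = 0.0320). None of 22 SBF genes was called in the 12-library fit. The 9-library fit called BUD9, a bud site protein that is also on the daughter cell list, and CRH1, a cell wall enzyme. The MBF motif ACGCGT stood in 30 of 42 MBF promoters (71.4%), against 3.17% of all and, of genes called lower, 3.70% in the 12-library fit and 4.31% in the 9-library fit. The SBF motif CGCGAAA stood in 2 of 22 SBF promoters (9.09%), against 3.68% of all and, of genes called lower, 8.64% and 12.1% in the 2 fits. In the 600 bases before the start codon it stood in 59.1% of SBF promoters, against 6.67% of all and 22.2% and 22.4% of genes called lower.

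RNA of histones was not called by either fit. Of 10 histone genes 9 lay below WT, with a median of -0.24. HHF1, for histone H4, was at 372, 371 and 454 in WT and 321, 310 and 213 in empty_vector (-0.52, SE 0.15, adjusted p = 0.0692). HTA1, for H2A, was at 186, 204 and 201 against 176, 199 and 101 (-0.37, SE 0.24). Library 3 of empty_vector, the one that stood apart, was the lowest of the group in both genes. The list medians relative to the WT mean were -0.18, -0.13 and -0.39 in empty_vector libraries 1, 2 and 3.

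Of 18 genes of the DNA damage response, 2 fell in both fits, DUN1 among them, and none rose. Among all features, 1.51% and 1.98% were called lower in the 12- and 9-library fits. RNR3, the damage-induced subunit of ribonucleotide reductase, stood at 5.68, 6.40 and 6.44 in WT and 6.17, 6.15 and 6.76 in empty_vector (0.04, SE 0.08, adjusted p = 0.767). HUG1, another induced gene of that response, was at 3.98, 6.30 and 4.96 against 2.43, 2.94 and 2.74 (-0.70, SE 0.32, adjusted p = 0.177). RNR2 and RNR4, its other inducible subunits, overlapped between the groups. None of 35 kinetochore genes was called by either fit, and their median was -0.06 (0.03 with unscaled TPM). Of 10 spindle checkpoint and passenger complex genes, BUB3 was called by the 9-library fit alone, at 16.8, 14.5 and 16.8 against 12.2, 12.2 and 12.2 (-0.36, adjusted p = 0.0387). Of 20 spindle genes 1 fell in the 12-library fit and 3 in the 9-library fit, which added KIP2 and SPC97 (-0.45 and -0.52, adjusted p = 0.0384 and 0.0432; SPC97 was named after its values were seen). With 1 library left out the 9-library fits called at most 1. STU2, a microtubule polymerase, fell from 16.2 to 16.8 in WT to 12.1 to 13.0 in empty_vector (-0.37, SE 0.08, adjusted p = 0.0491).

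**Figure D3:**
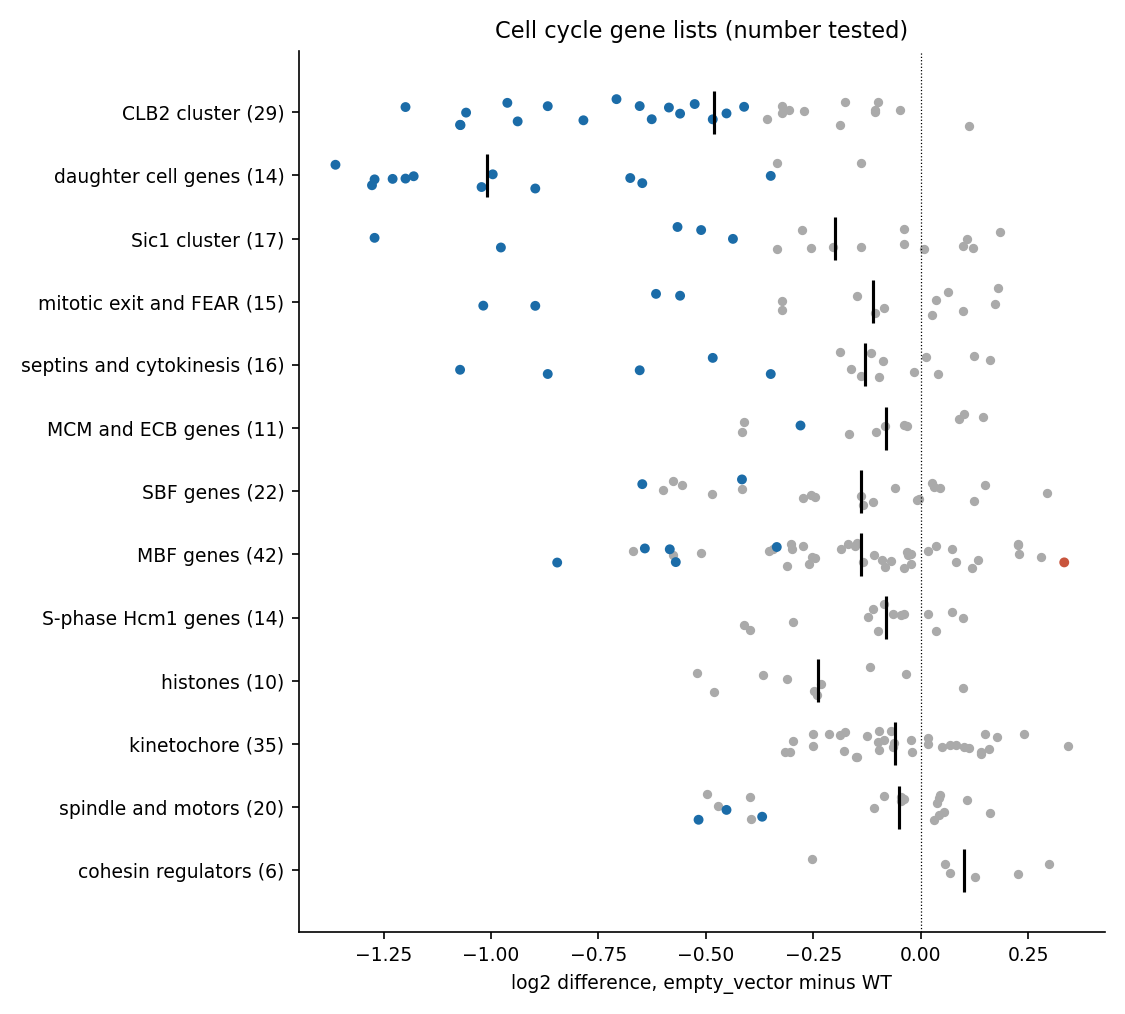
Log2 difference (empty_vector minus WT) of each tested member of 13 cell cycle lists, with the number tested in brackets; blue points were called lower and red points higher in the 9-library fit, grey points were not called, and black bars are list medians. The daughter cell genes and the CLB2 cluster have medians of -1.01 and -0.48, and the kinetochore and spindle lists lie around 0.

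Genes of the cell wall were lower in part. Of 29 genes of cell wall integrity 4 fell in the 12-library fit and 8 in the 9-library fit, against 1.51% and 1.98% of all features called lower, with a median of -0.21. With 1 library left out the 9-library fits called 2 (without WT 3) to 6 (without empty_vector 3), 3 without WT 1 or WT 2, and 5 and 4 without empty_vector 1 and 2. GAS1, a glucan elongase, stood at 247, 239 and 245 in WT, 225, 250 and 258 in R787G and 166, 151 and 176 in empty_vector (-0.57, SE 0.12, adjusted p = 0.0491). SIM1, a SUN family protein, went from 51.5, 56.2 and 57.3 to 38.8, 35.2 and 42.1 (-0.50, SE 0.11, adjusted p = 0.0491). The other 2 called in the 12-library fit, SUN4 and CIS3, are also on the daughter and Sic1 lists. KDX1, a gene induced by the cell wall integrity kinase, was at 71.5, 68.1 and 83.0 against 57.9, 50.4 and 51.3 and was called in the 9-library fit (-0.47, adjusted p = 0.0266).

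Among the genes called higher, targets of Gcn4 were the most numerous of any list, but the list is long. The shorter list of glucose sensing and transport, below, had 3 and 4 of 24 called higher in the 12- and 9-library fits. Gcn4 is the activator of amino acid synthesis genes. Of 57 Gcn4 targets, 7 rose in the 12-library fit and 6 in the 9-library fit, none fell in either, and the median was 0.10. Of all features, 1.13% and 1.05% were called higher. ARG1, argininosuccinate synthase, stood at 929, 984 and 882 in WT, 925, 957 and 769 in R787G and 1256, 1426 and 1351 in empty_vector (0.53, SE 0.12, adjusted p = 0.0491). ARG8, a transaminase of ornithine synthesis, went from 75.7, 78.6 and 69.6 to 102, 113 and 97 (0.48, SE 0.11). ARG7 overlapped with R787G (128, 127 and 124), its empty_vector libraries being at 125, 175 and 152. ARG4, argininosuccinate lyase, was at 266, 444 and 302 in empty_vector against 182, 225 and 168 in WT and was not called (0.79, SE 0.20, adjusted p = 0.0543). The 9-library fit called 7 Gcn4 targets without empty_vector 1 and 0 without any 1 of the other 5 libraries compared. The Gcn4 motif TGACTC was found in 63.2% of Gcn4 target promoters in the shorter window, in 18.8% of promoters of genes called higher in the 12-library fit, 12.3% in the 9-library fit and 8.22% of all. ARG7 held it 152 bases before its start codon, in capitals here.
ARG7, Gcn4 motif, chrXIII:396504-396554, minus strand: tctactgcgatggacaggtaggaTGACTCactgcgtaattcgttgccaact

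Genes of glucose sensing and transport rose in part. Of 24 tested members of that list 3 rose in the 12-library fit and 4 in the 9-library fit, against 1.13% and 1.05% of all features called higher, with a median of 0.14. RGT2, a sensor of high glucose, stood at 41.5, 44.2 and 38.8 in WT and 52.9, 56.4 and 52.6 in empty_vector (0.37, SE 0.08, adjusted p = 0.0491). HXT6, a high-affinity transporter, was at 174, 181 and 113 in WT, 312, 274 and 177 in R787G and 287, 443 and 312 in empty_vector, so it also overlapped with R787G (1.16, SE 0.31, adjusted p = 0.0624; 0.0492 in the 9-library fit). Its near-identical neighbour HXT7 (0.43, not called) can share reads with it, and the split between them is uncertain. No member of this list was called in the 9-library fits with 1 library left out.

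Few stress genes of Msn2 and Msn4 were called. Of 56 members none was called in the 12-library fit. The 9-library fit called 5 higher, CTT1, GSY1, PIG2, GLC3 and GIP2, and none lower, against 1.05% of all features called higher, and the list median was 0.03. CTT1, the cytosolic catalase, stood at 165, 187 and 173 in WT and 225, 250 and 212 in empty_vector (0.39, SE 0.09, adjusted p = 0.0509; 0.0477 in the 9-library fit). The other 4 act on glycogen. GSY1, a glycogen synthase, was at 40.7, 40.5 and 36.6 in WT, 46.7, 57.7 and 45.6 in R787G and 57.3, 56.3 and 59.8 in empty_vector (0.55, adjusted p = 0.0566; 0.0155). PIG2, a subunit that targets the phosphatase Glc7 to glycogen synthase, went from 45.2, 50.1 and 40.9 to 59.9, 72.2 and 61.4 (0.50, adjusted p = 0.0534; 0.0290). GLC3, the branching enzyme, and GIP2, another Glc7 subunit, were named after their values were seen (0.39 and 0.43, adjusted p = 0.0194 and 0.0217 in the 9-library fit). The 9-library fit called 0 of the 56 without WT 1, WT 3 or empty_vector 3, 3 without WT 2, 4 without empty_vector 1 and 1 without empty_vector 2. The stress element AGGGG stood in 60.7% of these promoters in the shorter window, in 23.4% of promoters of genes called higher in the 12-library fit, 31.6% in the 9-library fit and 22.1% of all.

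The genes of the proteasome and of the heat shock factor Hsf1 lay below WT, nearly all without a call for the single gene. All 33 proteasome genes were below WT, against 3137 of all 6097 features, by 0.25 to 0.66 and with a median of -0.43. In 28 of them the empty_vector libraries lay below those of WT (18.4% of all features). No proteasome gene was called by either fit. PRE10, a subunit of the core particle, stood at 372, 321 and 470 in WT, 298, 339 and 440 in R787G and 295, 230 and 233 in empty_vector (-0.61, SE 0.17, adjusted p = 0.0675; 0.0982 in the 9-library fit). PRE7, another core subunit, was at 245, 226 and 306 against 199, 164 and 155 (-0.58, SE 0.15, adjusted p = 0.0566). WT library 3 and R787G library 3 were the highest of their groups in both genes, and the medians of the list relative to the WT mean were -0.05, -0.17 and 0.24 in WT, -0.28, -0.12 and 0.23 in R787G and -0.28, -0.56 and -0.45 in empty_vector. In 12 of the 33 genes empty_vector lay below all WT and R787G libraries, against 8.77% of all features.

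The Rpn4 motif GGTGGCAAA was found in 27 of 33 proteasome promoters (81.8%) in both windows, against 1.25% of all promoters in the shorter one. The 6 core and regulatory subunits without it differed by -0.58 to -0.25, and the 27 with it by -0.66 to -0.28. RPN13, which lacks it, stood at 223, 212 and 256 in WT and 186, 168 and 153 in empty_vector (-0.44, adjusted p = 0.0668). No gene called lower or higher in either fit held the motif in the shorter window, where only 1.25% of all promoters hold it. In the 600 bases before the start codon 1 gene called lower held it in each fit (1.23% and 0.862%), against 1.76% of all. The motif stands in capitals in the stretch before PRE10, 128 bases from the start codon.
PRE10, Rpn4 motif, chrXV:1018846-1018896, minus strand: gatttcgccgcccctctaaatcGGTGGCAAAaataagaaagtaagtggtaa

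All 27 Hsf1 chaperones lay below WT (median -0.38), and 1 was called in each fit, against 1.51% and 1.98% of all features called lower. HSP10, a mitochondrial chaperonin, was at 258, 226 and 345 in WT and 172, 163 and 116 in empty_vector (-0.87, SE 0.20, adjusted p = 0.0491; 0.0578 in the 9-library fit). SSA3, a stress-induced Hsp70 named after its values were seen, was at 111, 108 and 116 against 60.3, 87.4 and 73.1 and was called by the 9-library fit (-0.61, adjusted p = 0.0326). STI1, a co-chaperone of Hsp90, was at 456, 436 and 501 against 361, 297 and 376 and was not called (-0.43, SE 0.14, adjusted p = 0.0864).

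Genes of ribosome assembly had means slightly below WT. Of 98 ribosome biogenesis genes 5 fell in the 12-library fit, 8 fell in the 9-library fit and none rose. The shares of all features called lower in these fits were 1.51% and 1.98%. The median of the list was -0.17, which unscaled TPM changed to -0.07. The 9-library fit called 1 without any single WT library, and 2, 3 and 7 without empty_vector 1, 2 and 3. RSA4, an assembly factor of the large subunit, stood at 23.0, 23.7 and 21.8 in WT, 17.3, 17.3 and 15.7 in R787G and 16.3, 16.3 and 17.0 in empty_vector (-0.44, SE 0.10, adjusted p = 0.0491). In RSA4 the plasmid with R787G thus shared the low level of empty_vector, although its SCC2 RNA was high. UTP13, a subunit of the small subunit processome, went from 38.3, 35.9 and 35.7 to 29.2, 29.6 and 27.8, with R787G between at 32.5, 35.4 and 30.2 (-0.33, SE 0.07, adjusted p = 0.0491). The medians of the list were -0.13 to -0.19 in the 3 R787G libraries and -0.11 to -0.26 in those of empty_vector. Of 36 genes of RNA polymerases I and III, 2 fell in the 12-library fit, RPC40 and RPA49 (-0.29 and -0.31), and TFC3 rose (0.21, SE 0.05, adjusted p = 0.0491; 0.0581 in the 9-library fit). Of the 36, 4 were called lower in the 9-library fit, which added RPA12 and RRN11 (-0.34 and -0.31, the latter named after its values were seen), and none higher. With 1 library left out those fits called at most 1. Of 137 ribosomal protein genes, RPS9A fell in both fits, from 30.9, 33.8 and 34.7 to 20.4, 23.4 and 19.8 (-0.63, SE 0.14, adjusted p = 0.0491), and their median, -0.00, was 0.10 with unscaled TPM.

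Ribosomal RNA left after depletion also differed between the groups. RDN25-1 was at 582, 980 and 775 in WT, 217, 151 and 163 in R787G and 171, 202 and 186 in empty_vector, so the empty_vector libraries lay within the range of R787G. Of 15 tested features of RNA quality and depletion 8 were called lower in the 12-library fit and 4 in the 9-library fit, where the spacers ETS1 and ITS1 lost their calls. These counts include repeated loci with identical values, and stand beside 1.51% and 1.98% of all features called lower in the 2 fits. RNA of the mitochondrial genome was not called by either fit in 9 tested features. Their median was -0.45 with empty_vector library 3 and -0.12 without it. That library was at -1.22 relative to the WT mean, and empty_vector libraries 1 and 2 at -0.18 and -0.06. The part of these 2 measures in the gene groups above was not tested.

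**Figure D4:**
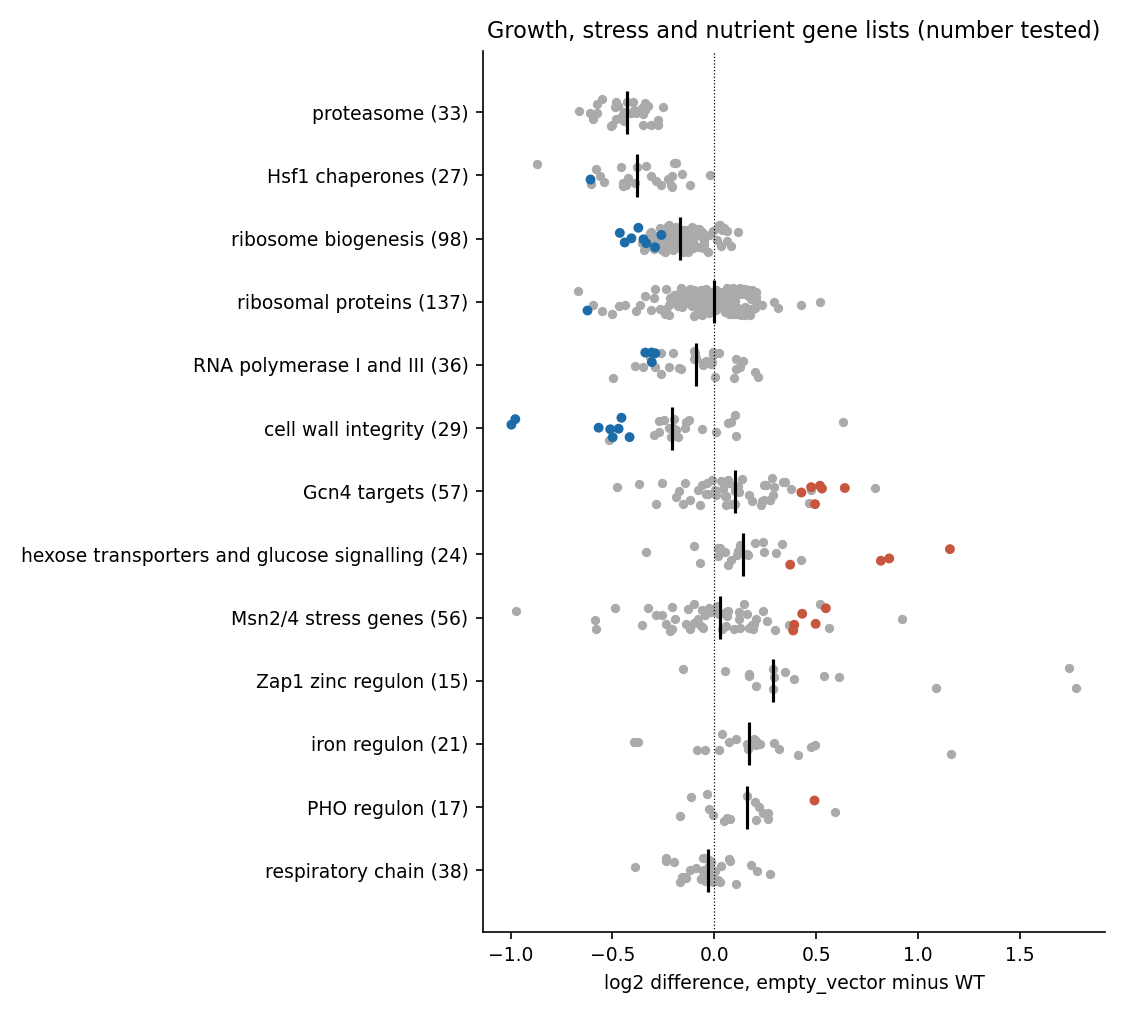
Log2 difference (empty_vector minus WT) of each tested member of 13 lists of growth, stress and nutrient genes, with the number tested in brackets; blue points were called lower and red points higher in the 9-library fit, grey points were not called, and black bars are list medians. The 33 proteasome genes lie at -0.25 to -0.66 with no call, and the calls of the Gcn4, glucose and stress lists are higher.

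Metal and phosphate genes had means mostly above WT. Of 15 genes of the zinc regulator Zap1 none was called by either fit, the median was 0.29, and in 12 the empty_vector libraries lay above WT, against 17.3% of all features. ZRT2, a zinc transporter, was at 344, 368 and 292 in WT and 479, 526 and 449 in empty_vector (0.54, SE 0.15, adjusted p = 0.0668). INO1, inositol phosphate synthase and also on that list, was at 20.7, 31.1 and 17.8 against 58.5, 168 and 51.5 and was not called (1.78, SE 0.50, adjusted p = 0.0692). It was highest in library 2, as were HXT6 and ARG4. Of 21 tested genes of the iron regulon none was called by either fit, with a median of 0.17. Of 17 genes of the phosphate regulon PHM7 rose in both fits, from 60.4, 68.5 and 62.1 to 87.4, 97.2 and 84.7 (0.49, SE 0.09, adjusted p = 0.0440). The shares of all features called higher in the 12- and 9-library fits were 1.13% and 1.05%.

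A few genes of meiosis, a programme that haploid cells do not normally enter, were called. Of 26 genes, 2 rose and 1 fell in the 12-library fit, and 3 rose and none fell in the 9-library fit, against 1.13% and 1.05% of all features called higher and 1.51% and 1.98% lower, with DMC1 called in the first alone and SPS100 in the second alone. With 1 library left out the 9-library fits called at most 1 gene in each direction. ZIP1, of the synaptonemal complex, stood at 24.2, 25.8 and 22.1 in WT and 35.4, 35.8 and 32.4 in empty_vector (0.51, SE 0.10, adjusted p = 0.0441). REC8, the meiotic counterpart of Mcd1 in cohesin, rose from 9.92, 9.91 and 9.45 to 13.1, 12.5 and 12.2 (0.33, SE 0.07, adjusted p = 0.0451), and R787G lay between, at 11.0 to 12.1. DMC1, the meiotic recombinase, fell from 6.55, 5.08 and 7.13 to 4.08, 3.48 and 4.25 (-0.55, SE 0.12, adjusted p = 0.0491). Of the a-specific genes, BAR1, the protease that degrades alpha factor, stood at 14, 14.4 and 14.6 against 9.79, 9.90 and 10.4 and was called by the 9-library fit alone (-0.48, adjusted p = 0.0189). No alpha-specific and no other pheromone gene was called by either fit.

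Other lists gave few calls or none. None of 25 ergosterol, 38 respiratory chain, 24 glycolysis, 28 tested subtelomeric or 14 Hcm1 genes was called by either fit. Of 14 purine synthesis genes, IMD4, an enzyme of guanine nucleotide synthesis, fell in both fits, from 28.6, 28.5 and 27.5 to 18.8, 21.1 and 19.4 (-0.49, SE 0.10, adjusted p = 0.0446). Among all features, 1.51% and 1.98% were called lower in the 12- and 9-library fits. PDC6, a minor pyruvate decarboxylase, was at 72.7, 101 and 50.2 against 162, 333 and 180 and was not called (1.56, SE 0.40, adjusted p = 0.0566).

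Because cohesin is dense around centromeres and the loader has been reported at tRNA genes and active promoters, the differences were laid out along the chromosomes for 5789 nuclear genes with coordinates. The medians differed little between classes of distance. They ranged from -0.02 to -0.00 over 6 classes of distance to the centromere, from -0.02 to 0.03 over 6 classes of distance to the chromosome end and from -0.01 to 0.01 over 4 classes of distance to the nearest tRNA gene. Of 173 genes within 10 kb of a centromere, the main fit called 3 lower and 2 higher, against 91 and 66 of all 5789. The 9-library fit called 3 lower and 0 higher (1.73%), against 3.07% of all with coordinates. With so few calls, a difference in share cannot be read from these counts. Genes whose 3′ neighbour is convergent, the places where cohesin collects between genes, had a median of -0.02 (2953 genes) and those followed in tandem 0.01 (2713). Coding length made a larger difference, with -0.06 for 736 genes under 500 bases and 0.06 for 475 genes of 3000 bases or more. Genes with a mean above 200 TPM had a median of -0.07.

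**Figure D5:**
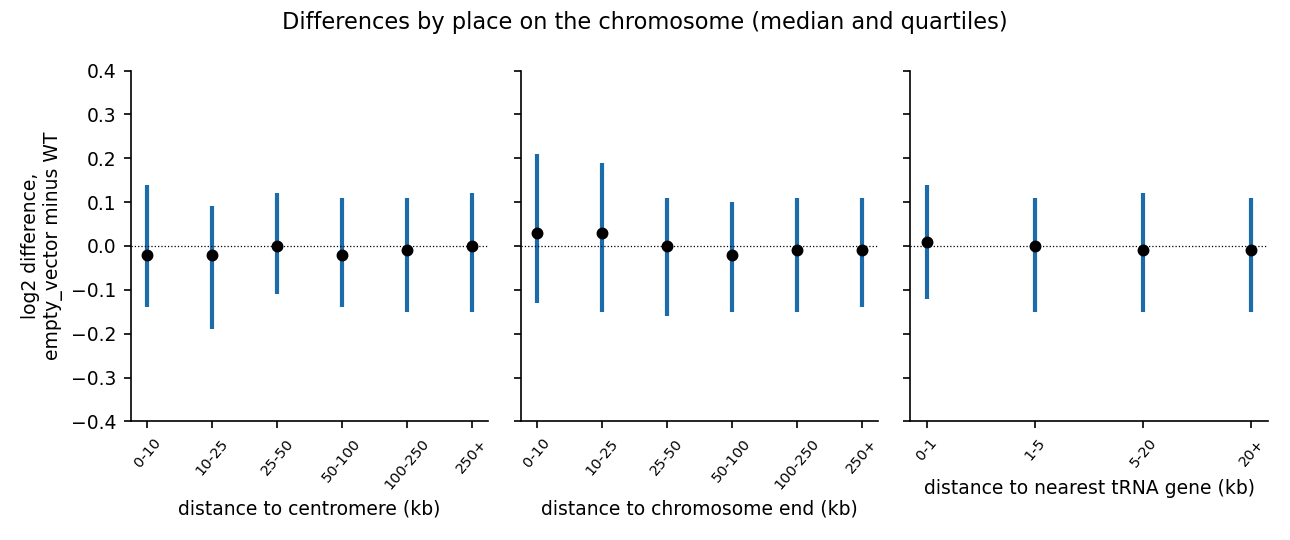
Median (black points) and quartiles (blue bars) of the log2 difference, empty_vector minus WT, for nuclear genes by distance in kb to the centromere, to the chromosome end and to the nearest tRNA gene. Every median lies between -0.02 and 0.03, and the quartiles overlap throughout.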

How the data were processed

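RNA of 12 yeast cultures was depleted of ribosomal RNA and sequenced as stranded libraries of 50 bp single reads, per the labels' protocols. The authors deposited a table of TPM per gene; the submitters' processing notes name RSEM, bcl2fastq 2.17, STAR, edgeR and the sacCer3 genome. TPM keeps no counts, so depth is unknown and no counting intervals are given. Of 7036 features, 3 with shifted fields were left out, as was 1 unnamed column, and 248 of the rest share their values with another feature.

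TPM was scaled by median-of-ratios factors (0.904 to 1.19, from 5421 features with a mean of 10 or more and no zero). Features with a mean of 1 or more were fitted as log2(scaled TPM + 1) with limma 3.58.1 in R 4.3.3 (variance trend, two-sided moderated test, Benjamini-Hochberg). The main fit held all 12 libraries with the group as term (8 residual degrees of freedom and 3.20 from the prior). No exact permutation test was run, since 3 against 3 allows none under p = 0.1. The procedure was tested on simulated data. Levels are scaled TPM.

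Coordinates and promoters are from the R64 reference, whose sequence is that of sacCer3; gene starts there are start codons. Locus tags matched 5953 features, symbols or synonyms 125, and 955 were not matched. Named genes were the 16 largest falls and 12 largest rises among called genes with a mean of 5 TPM or more and no overlap, up to 6 called and 3 other members of each of 46 lists, and all members of the short cohesin, marker, histidine, mating, histone, damage, CLB2 and daughter cell lists; exceptions are marked in the text. A few members of the lists are counted but not reported here. A list of Ty elements had no member in the table. The genes, lists and tests were chosen with earlier results of these data known. Alternatives were other scalings, pseudocounts of 0.1 and 5, other filters, no trend, fewer libraries in the fit, a replicate block, each library left out in turn, and a longer promoter window.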

Additional observations from a re-analysis of the deposited data

How the results depend on the processing

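The counts of calls depended on the libraries in the fit far more than on pseudocounts, quantile normalization or a filter of 10 TPM, which left between 142 and 184 called. Fitting without a filter on low values gave 0 called, 0 lower and 0 higher (smallest adjusted p 0.0539; 1769 at an unadjusted p under 0.05), as did the fit without a variance trend (0.0510; 1720); limma was the tool run. TPM as deposited gave 52 lower and 154 higher. Leaving out each library in turn gave 0 to 24 called, 0 to 9 lower and 0 to 15 higher in the 12-library fit, and in the 9-library fit, chosen after seeing the data, 65 to 133 called, 61 to 90 lower and 3 to 45 higher. Of 113 named genes checked in this way, RNR3 changed sign, between -0.01 and 0.07 with single libraries left out. Differences nearer 0, such as those of RNR2 (-0.008), RNR4 (0.001) and STE2 (-0.002), are smaller than the shift of about 0.1 from unscaled TPM. Their signs are not settled. The longer promoter window gave 48.3% for the forkhead motif in the CLB2 cluster, 71.4% for ACCAGC in the daughter cell genes and 80.7% for TGACTC in the Gcn4 targets. Of 720 list medians under alternatives, 651 moved by less than the spread between libraries. That count includes alternatives that cannot move a median. The fits without a trend, with a replicate block or without other groups change the precision and not the differences.

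With the replicate number as a block, 0 genes were called, 0 lower and 0 higher (smallest adjusted p 0.0634; 1774 at an unadjusted p under 0.05). Same-numbered libraries of WT and empty_vector deviated together with r = -0.00907, 0.303 and 0.0780 for numbers 1, 2 and 3. The labels do not say what the numbers mark, and 3 correlations cannot settle whether they pair the libraries. Whether the block gives the better estimate was not tested.

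TPM without read counts leaves the depth unknown, so differences of low genes carry no counting error here, and a gene that missed the threshold is not shown to be equal.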

Other observations

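Of the 61 features called in every 9-library fit with 1 library left out, 25 belong to the CLB2 cluster or the daughter cell genes, and 21 belong to none of the 46 lists. Of these 21, 19 were lower in empty_vector, and YOR203W, described above with HIS3, was among the rises. The genes below were named after their values were seen, unless noted. Several are known from cell division. VAC17, which carries the vacuole into the bud, stood at 11.7, 10.4 and 11.4 in WT and 6.34, 5.03 and 5.91 in empty_vector (-0.85, SE 0.19, adjusted p = 0.0491 in the 12-library fit, 0.00402 in the 9-library fit). ALK2, the second haspin-like kinase, went from 9.17, 8.69 and 8.52 to 5.06, 5.11 and 5.54 (-0.65, SE 0.11, adjusted p = 0.0440). SRS2, a DNA helicase of recombination and repair, went from 15.5, 14.5 and 15.4 to 10.4, 9.79 and 11.0 (-0.50, SE 0.11, adjusted p = 0.0491). YBR138C and YNL058C, taken by the naming rule and with no role given here, went from 16.5, 14 and 16.8 to 6.94, 5.57 and 6.20 and from 107, 103 and 101 to 41.7, 39.9 and 47.7. The 21 also include HMT1 (-0.50), POT1 (-0.62), DAK2 (-0.92), ELO3 (-0.54) and TRM11 (-0.36), which were not picked for a part in division. In TRM11, R787G shared the low level, with means of 30 in WT, 23.2 in R787G and 23.1 in empty_vector.

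Further genes outside the lists, picked after their values were seen and counted against no list, were these. TOS1, a cell wall protein, stood at 54.2, 52.7 and 58.6 in WT and 30.2, 29.6 and 36.8 in empty_vector (-0.76, SE 0.18, adjusted p = 0.0491). ECM33, a GPI-anchored wall protein, went from 181, 191 and 192 to 118, 118 and 133 (-0.61, SE 0.13, adjusted p = 0.0491) and was called in 1 of the 6 fits of 9 libraries with 1 left out. PSA1, which makes GDP-mannose for glycoproteins, was at 292, 260 and 311 in WT, 322, 386 and 344 in R787G and 179, 159 and 162 in empty_vector (-0.79, adjusted p = 0.0647; 0.00402 in the 9-library fit). MEP2, an ammonium permease, went from 31.2, 32.7 and 29.5 to 42.8, 49.9 and 44.9 (0.54, SE 0.12, adjusted p = 0.0491), and DAL80, a GATA repressor of nitrogen genes, from 35.8, 35.3 and 30.9 to 42.8, 48.4 and 44.8 (0.41, SE 0.09, adjusted p = 0.0491). With 1 library left out, the 9-library fits called MEP2 in 3 of 6 and DAL80 in 0. LEU2 stood apart by plasmid in another way, at 62.5, 72.1 and 67.3 in WT and 64.6, 75.6 and 68.9 in empty_vector but 102, 102 and 103 in R787G.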
